A study of Mus musculus with 54 samples.

Results

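The hearts of mice carrying the error-prone allele of Mrps12 on both chromosomes (Mrps12ep/ep, n = 3) were compared with the hearts of wild-type mice (Mrps12+/+, n = 3). Every gene with a mean normalized count of 10 or more over the 9 hearts of the study was included, which kept 16057 of the 54356 genes in the heart table. The remaining 3 hearts came from mice with the hyper-accurate allele (Mrps12ha/ha) and served to estimate the spread and to show where the mutants differed. All animals were C57BL/6 mice of 20 weeks kept on a high-fat diet that drew 42% of its energy from fat, 35% from carbohydrate and 23% from protein, so the wild-type hearts were those of fat-fed mice too. RNA was extracted from total heart, and the values of 3 technical libraries per mouse were pooled into 1 column, so that each value below belongs to 1 animal.

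MRPS12 is a protein of the small subunit of the mitochondrial ribosome and lies at its decoding centre, where codons of mitochondrial messenger RNA are matched with tRNAs. Changes in the equivalent bacterial protein are classic ways of making translation more or less accurate. The mitochondrial ribosome makes only core subunits of the respiratory chain and ATP synthase, and the heart depends on that chain, fed mainly by fatty acids, for its contraction. All genes counted here are nuclear, since the deposited table leaves out mitochondrial transcripts.

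Mrps12 (ENSMUSG00000045948.8) lies on the minus strand at chr7:28739641-28741820 of GRCm38. The 60 bases of exon 3 of 3 around the altered site, chr7:28740046-28740105, are given in the direction of transcription because they show where the genotypes differ. Capitals mark codon 72, a lysine codon at chr7:28740073-28740075, which the error-prone allele alters. The lysine codon before it, codon 71 at chr7:28740076-28740078, is the one that the hyper-accurate allele alters.
Mrps12: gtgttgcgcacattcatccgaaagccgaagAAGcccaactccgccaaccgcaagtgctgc

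The level of Mrps12 RNA did not separate the genotypes. Its normalized counts were 1155.6, 1052.1 and 1027.6 in the wild-type hearts and 1291.8, 1065.9 and 1124.3 in the Mrps12ep/ep hearts, and these ranges overlapped. The log2 fold change was 0.10 (SE 0.13, limma, unadjusted p = 0.449). A point mutation leaves the transcript in place, so this level is no check of the genotype labels. Sars2, the mitochondrial seryl-tRNA synthetase gene that neighbours Mrps12, differed by -0.07 (limma, unadjusted p = 0.673).

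The wild-type and Mrps12ep/ep hearts held between 33825970 and 51480271 reads on genes, and the Mrps12ha/ha hearts between 11202866 and 47813327. Libraries stood apart within each genotype. Atrial markers were far lower in the first mouse of both genotypes than in the other hearts. Myl7, the atrial myosin light chain, was at 28.4, 33987 and 25002 normalized counts in wild type and at 21.8, 51455 and 17872 in Mrps12ep/ep hearts. Nppa, the atrial natriuretic peptide gene, was at 7983, 78294 and 54983 against 1593, 188122 and 47558. All 3 Mrps12ha/ha hearts were low in atrial markers (list mean from -3.24 to -1.66 against wild type) and in mesothelial markers (from -3.77 to -2.51), and the part of this in any difference between the mutants was not tested. The second Mrps12ep/ep heart lay farthest out on the first principal component (score 75.9, against -33.2 and 31.3 for the other Mrps12ep/ep hearts and -23.6 to 36.9 in wild type). Results are therefore also given without that heart and within the hearts of each atrial content.

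No gene differed between Mrps12ep/ep and wild-type hearts at an adjusted p under 0.05 (limma, Benjamini-Hochberg over 16057 genes, 0% called; limma-voom on whole reads called 2). At an unadjusted p under 0.05 limma gave 271 genes (1.69%), of which 169 (1.05%) were higher and 102 (0.635%) lower in Mrps12ep/ep hearts. In 1290 genes (8.03%) the 3 Mrps12ep/ep hearts did not overlap the 3 wild-type hearts, 706 higher (4.40%) and 584 lower (3.64%). With no difference at all, a share of 0.05 on average would pass that p and a share of 0.1 would not overlap. Both observed shares were smaller, so neither count is a number of changed genes. The count of 271 rested on single hearts, being 130 without the third wild-type heart, 168 without the third Mrps12ep/ep heart, 520 without the first Mrps12ep/ep heart and 488 without the second Mrps12ha/ha heart. The smallest adjusted p was 0.0624, and for every other gene given with an unadjusted p below it was 1. With 3 hearts against 3, an exact permutation test of a single gene cannot go below 0.1.

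The precision of the comparison followed the level of the gene. The median SE of a log2 fold change was 0.21 and the median 95% interval reached 0.48 to either side. For 73.6% of the genes tested the whole interval lay within a 2-fold change either way. That share was 23.5% of the 4151 genes with a mean from 10 to 100, 86.7% of the 6584 from 100 to 1000, and 96.4% of the 5322 above 1000. For the genes with a mean from 10 to 100, most intervals reached a 2-fold change in at least one direction.

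**Figure D1:**
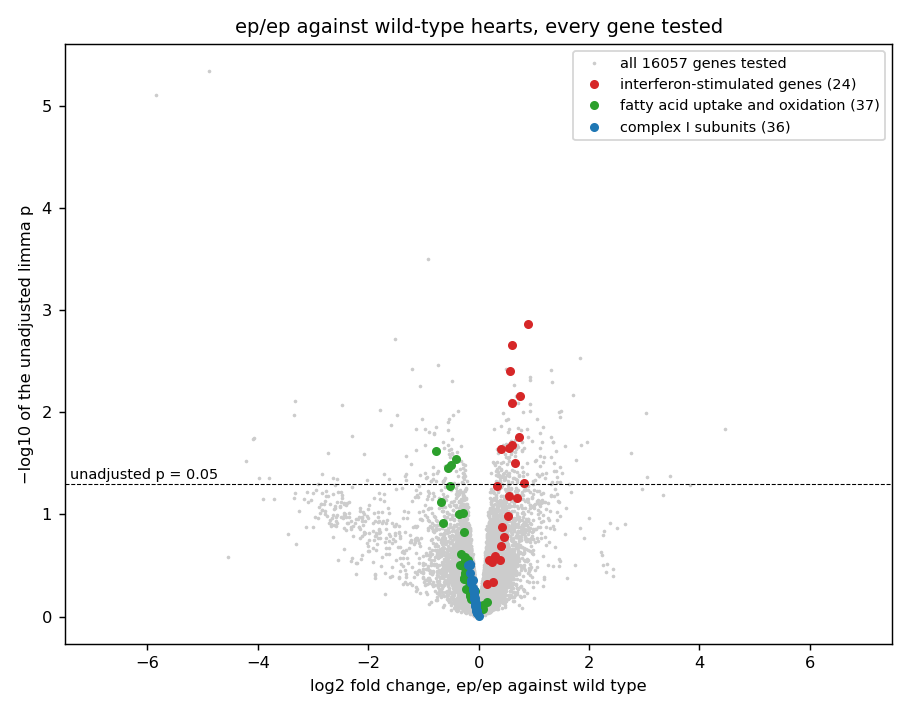
Log2 fold change of Mrps12ep/ep against wild-type hearts (horizontal) and −log10 of the unadjusted limma p (vertical) for the 16057 genes tested, 1 point a gene. Interferon-stimulated genes (red) lie to the right of 0, and fatty acid genes (green) and complex I subunits (blue) mostly to the left; no gene passed the adjusted threshold.

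Of the 26 gene lists, the interferon-stimulated genes held the most members with an unadjusted p under 0.05 by limma. They are the antiviral and immune-signalling genes that cells switch on when interferon reaches its receptor. All 24 listed genes were tested and all 24 had a higher mean in Mrps12ep/ep hearts, against 47.7% of all genes, with a median log2 fold change of 0.54 against -0.009 over all genes. Of the 24, 11 had an unadjusted p under 0.05 and 12 did not overlap between genotypes, where the background in that direction was 1.05% and 4.40%. None had an adjusted p under 0.05 by limma or in any of the alternative fits, limma-voom included. The mean log2 level over the list was set against the wild-type mean. It was 0.28, -0.05 and -0.23 in the wild-type hearts and 0.62, 0.48 and 0.41 in the Mrps12ep/ep hearts, without overlap. With no difference at all, a share of 0.1 of lists would on average separate in this way. The lists were chosen with earlier results of these data known, and the 24 genes were read in the same 6 hearts. These counts are therefore a description, and no test of the list was made.

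Genes for guanylate-binding proteins, GTPases of cellular defence, led the list. Gbp3 was at 535.6, 350.4 and 345.3 normalized counts in wild type and at 849.9, 684.9 and 710.2 in Mrps12ep/ep hearts. Its log2 fold change was 0.89 (SE 0.20, limma, unadjusted p = 0.00135). Gbp2 was at 798.3, 687.0 and 623.2 against 1147.1, 984.1 and 1077.1, with a log2 fold change of 0.61 (SE 0.15, limma, unadjusted p = 0.00221). In both genes every Mrps12ep/ep heart lay above every wild-type heart, and the first wild-type heart was the highest of its group.

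Irf7 encodes the transcription factor that amplifies the production of type I interferon. It was at 616.6, 459.4 and 401.2 in wild type and at 874.7, 796.8 and 782.8 in Mrps12ep/ep hearts (log2 fold change 0.75, SE 0.22, limma, unadjusted p = 0.00692). Oasl2, of the oligoadenylate synthetase family, was at 553.7, 655.8 and 519.5 against 813.3, 1004.4 and 760.1 (log2 fold change 0.57, SE 0.15, limma, unadjusted p = 0.00391). The groups did not overlap in either gene. For Rtp4 the log2 fold change was 0.61 (limma, unadjusted p = 0.00814).

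Antiviral effectors on the list differed in size. Mx1 (0.38), Mx2 (0.15), Oas1a (0.42) and Oas2 (0.40) overlapped between the genotypes, with unadjusted p of 0.281, 0.48, 0.133 and 0.204 by limma. Ifit3, whose protein family binds foreign RNA, was at 511.5, 460.3 and 255.3 in wild type and at 729.1, 618.8 and 611.2 in Mrps12ep/ep hearts (log2 fold change 0.73, limma, unadjusted p = 0.0176). Bst2, tetherin, which holds budding virus at the cell surface, was at 585.6, 423.1 and 404.4 against 815.3, 688.3 and 633.9 (log2 fold change 0.61, limma, unadjusted p = 0.0211). Neither gene overlapped between the genotypes. Ifit1 (0.66), Ifi44 (0.83) and Usp18 (0.56), the protease that removes ISG15 from proteins, were also past an unadjusted p of 0.05 by limma, each without overlap. Ddx58 encodes RIG-I, a cytosolic sensor of RNA, and was at 696.7, 680.0 and 554.7 against 845.0, 858.3 and 832.8 (log2 fold change 0.40, limma, unadjusted p = 0.0228).

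Genes of transcription factors that carry the signal of the interferon receptor had smaller log2 fold changes, at 0.30 for Stat2 and 0.25 for Irf9, with unadjusted p of 0.255 and 0.292 by limma. Both overlapped between the genotypes. Rsad2, viperin, was higher by 0.70 but overlapped (1115.2, 642.0 and 607.5 against 1370.0, 1006.1 and 1348.6, limma, unadjusted p = 0.0687). Isg15, a ubiquitin-like modifier, was at 135.2, 102.1 and 111.3 against 186.2, 179.2 and 139.9 without overlap (log2 fold change 0.53, limma, unadjusted p = 0.103). The smallest difference of the list was that of Mx2, at 0.15.

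**Figure D2:**
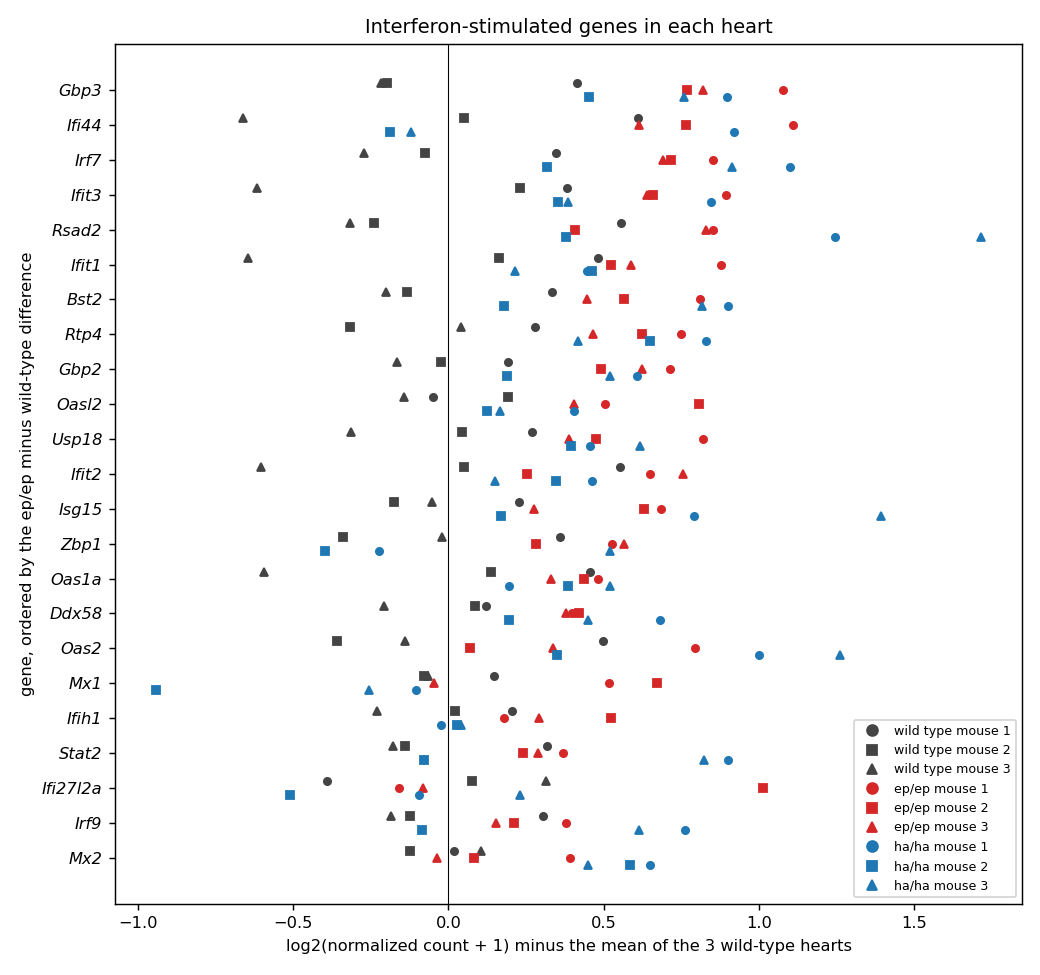
The 23 interferon-stimulated genes reported singly, in each heart, as log2(normalized count + 1) minus the mean of the 3 wild-type hearts; rows are genes ordered by the Mrps12ep/ep difference, colours are genotypes and symbols are mice. The red symbols (Mrps12ep/ep) sit to the right of the grey ones (wild type) without overlap in 12 genes, and the blue symbols (Mrps12ha/ha) spread over both.

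The group did not hang on the heart that stood farthest apart. Without the second Mrps12ep/ep heart, 23 of 24 genes were higher, with a median of 0.56, and 10 had an unadjusted p under 0.05; the exception, Ifi27l2a, went from 0.26 to -0.12. Among the hearts with atrial RNA, 2 of each genotype, the median was 0.59 with 24 higher, and between the hearts without it, 1 of each, it was 0.37 with 23 higher. The count of 11 was more sensitive than the direction, being 5 without the third wild-type heart and 6 without the first Mrps12ep/ep heart.

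Macrophage markers (11 of 11) and endothelial markers (11 of 14) mostly had a higher mean in Mrps12ep/ep hearts, against 47.7% of all genes. Lymphocyte and smooth muscle markers were mixed. None of these markers had an unadjusted p under 0.05 by limma. All 11 macrophage markers had a higher mean in Mrps12ep/ep hearts, with a median of 0.31 (0.10 without the second Mrps12ep/ep heart) and none free of overlap. Their mean per heart was 0.14, -0.10 and -0.04 in wild type and -0.03, 0.70 and 0.28 in Mrps12ep/ep hearts. Of 14 endothelial markers 11 had a higher mean, with a median of 0.21 and 1, Pecam1, free of overlap. Their mean per heart was 0.11, -0.06 and -0.04 in wild type, 0.29, 0.17 and 0.05 in Mrps12ep/ep hearts and 0.82, 0.04 and 0.76 in Mrps12ha/ha hearts. In all 3 genotypes the heart with the highest endothelial mean was the one with the highest interferon mean. Over the 9 hearts the interferon list correlated at 0.68 (Pearson) with the endothelial and at 0.39 with the macrophage markers. Lymphocyte markers were 3 higher and 4 lower (median -0.14), and smooth muscle and pericyte markers 5 higher and 4 lower (0.04). With the macrophage markers as a covariate 8 interferon-stimulated genes had an unadjusted p under 0.05 by limma, with a median of 0.433 over the list. With the endothelial markers as a covariate there were 9, with a median of 0.414. In a whole-heart extract, more cells of a type and more RNA per cell cannot be told apart.

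The Mrps12ha/ha hearts were on the same side of wild type for most of the list, although both mutants were measured against the same 3 wild-type hearts. Of the 24 genes 20 were higher in Mrps12ha/ha than in wild-type hearts, with a median of 0.44, and 11 had an unadjusted p under 0.05 where 9.64% of all genes did in that direction and 10.1% in the other. Their mean per heart was 0.56, 0.14 and 0.52. The difference between Mrps12ep/ep and Mrps12ha/ha hearts was 0.19 for Gbp3 (limma, unadjusted p = 0.37) and -0.02 for Irf7 (unadjusted p = 0.913), so no separation of the mutants was detectable there. It was 0.34 for Oasl2 (limma, unadjusted p = 0.049), which was higher in Mrps12ep/ep hearts.

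Promoter sequence is shown for some of these genes to describe an element that many of them share. The list was made of known interferon-stimulated genes, so a high share with that element follows from its choice. The share would be the same at any level of these genes in the hearts. The interferon-stimulated response element was searched as GAAA, any 2 bases and GAAA on both strands of the RefSeq promoters of GRCm38.p6, from 250 bases before to 50 bases after each start. It was present in 11 of the 16 listed genes that have an entry (68.8%), and in 1079 of 27025 genes (3.99%) or 1131 of 32851 promoters (3.44%). The gamma-activated site, searched as TTC, any 3 bases and GAA, was present in 3 of the 16 (18.8%), against 9.55% of genes. Capitals mark the matches to the response element or its reverse complement, and overlapping matches run together. The windows are those of Gbp3 at chr3:142559967-142560046 (plus strand), Gbp2 at chr3:142620569-142620648 (plus), Ifit3 at chr19:34583355-34583434 (plus) and Bst2 at chr8:71537555-71537634 (minus). A match describes the sequence and is not evidence that a factor was bound in these hearts.
Gbp3: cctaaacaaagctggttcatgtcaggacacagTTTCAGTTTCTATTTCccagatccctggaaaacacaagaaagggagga
Gbp2: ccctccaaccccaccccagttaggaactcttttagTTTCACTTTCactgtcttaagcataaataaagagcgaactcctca
Ifit3: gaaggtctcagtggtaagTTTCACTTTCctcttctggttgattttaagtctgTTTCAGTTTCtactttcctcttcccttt
Bst2: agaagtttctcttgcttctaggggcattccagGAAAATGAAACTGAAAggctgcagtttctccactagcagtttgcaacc

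The nuclear genes of the respiratory chain were slightly lower in Mrps12ep/ep hearts, and this direction was lost without 1 heart. Of 79 subunits of complexes I to V, 75 had a lower mean, with list medians from -0.06 (complex IV) to -0.16 (complex II), where 52.2% of all genes were lower. None had an unadjusted p under 0.05 and none was free of overlap. The second Mrps12ep/ep heart was the lowest of the 6 hearts for 76 of the 79 subunits, against 26.6% of all genes. Without it 71 of the 79 were higher than in wild type, with medians from 0.01 to 0.08. The direction also differed between the hearts with atrial RNA, 2 of each genotype, and those without it, 1 of each. The hearts with atrial RNA include the second Mrps12ep/ep heart, so this split is not separate from leaving that heart out. Their atrial marker means were 1.53 and 2.06 in wild type and 3.86 and 0.78 in Mrps12ep/ep hearts. An effect of atrial content was not tested. Among the hearts with atrial RNA the complex I median was -0.21, with 0 of 36 genes higher. Between the hearts without it the complex I median was 0.17, with 34 higher. For complex IV these medians were -0.22 and 0.22. The complex I mean per heart was 0.21, -0.37 and -0.07 in Mrps12ep/ep hearts. For all 79 the 95% interval lay within a 2-fold change either way, so a loss of that size in these transcripts was outside the intervals.

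The mitochondrial ribosome, of which MRPS12 is a part, gave the same picture. The median was -0.07 over 32 small-subunit and -0.08 over 50 large-subunit genes, and 73 of the 82 were lower. The second Mrps12ep/ep heart was the lowest for 77 of them, and without it 59 were higher and both medians were 0.05. Among the hearts with atrial RNA the 2 medians were -0.14 and -0.13, and between those without it 0.08 and 0.03. Mrpl17 alone had an unadjusted p under 0.05 (log2 fold change -0.29, limma, unadjusted p = 0.0354), at 1098.8, 1117.8 and 1254.6 in wild type and 1078.8, 912.2 and 848.2 in Mrps12ep/ep hearts. For 80 of the 82 genes the interval lay within a 2-fold change. Mitochondrial tRNA synthetases and translation factors (35 genes, median -0.10), the mitochondrial DNA expression machinery (29 genes, -0.08) and the protein import machinery (31 genes, -0.10) moved to 0.02, 0.05 and 0.02 without that heart, and none of their members had an unadjusted p under 0.05 by limma.

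**Figure D3:**
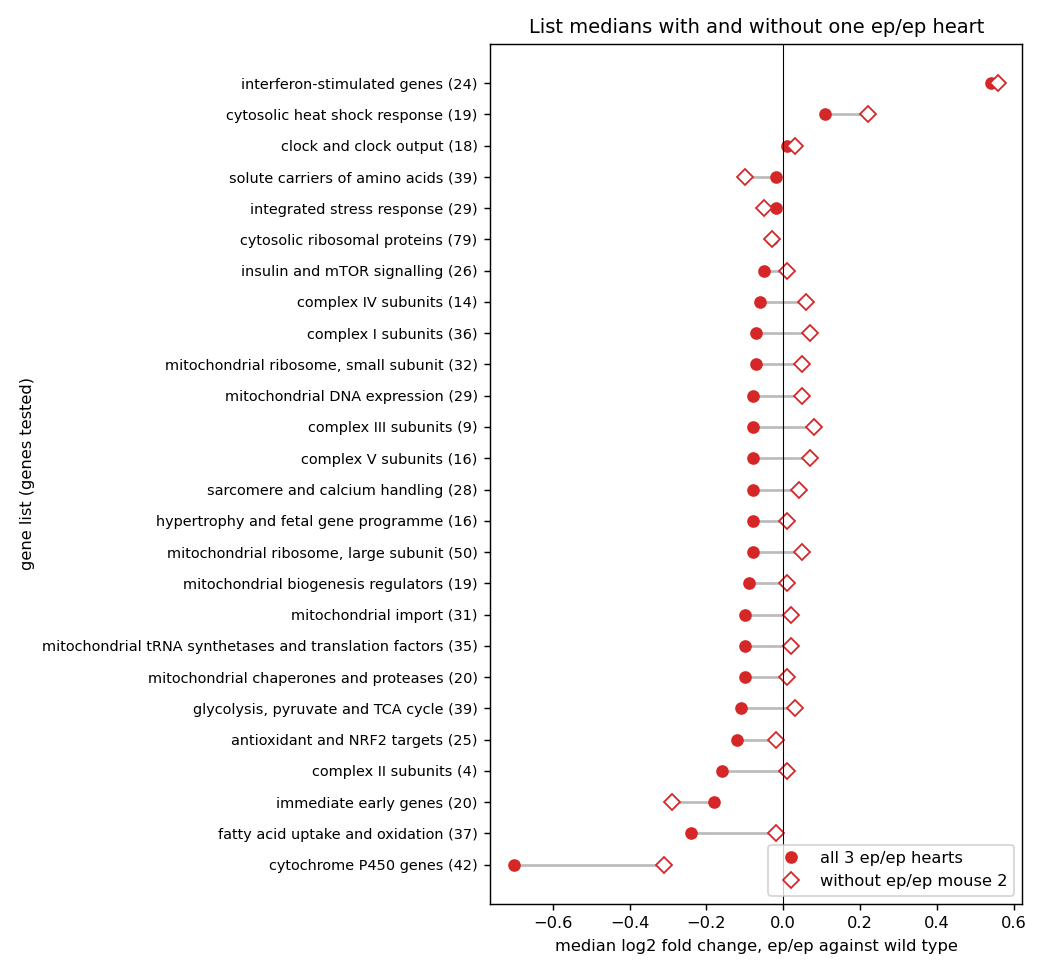
Median log2 fold change of each of the 26 gene lists, Mrps12ep/ep against wild-type hearts, with all 3 Mrps12ep/ep hearts (filled circles) and without the second one (open diamonds); the number of genes tested is in brackets. The interferon-stimulated genes stay near 0.54 either way, while the mitochondrial lists move from just below 0 to just above it.

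Of the 26 gene lists 3 had a median above 0 with all hearts, namely the interferon-stimulated genes, the heat shock genes (0.11) and the clock genes (0.01), and the medians of 16 lists changed sign without the second Mrps12ep/ep heart. That heart also differed from the others of its genotype in its markers. Its cardiomyocyte markers were lower (mean -0.33, against 0.10 and -0.01 in the other Mrps12ep/ep hearts and -0.08 to 0.06 in wild type), its fibroblast markers higher (0.84, against -0.21 and 0.10), and its hepatocyte markers, at trace level in the heart, lower (-4.66, against 0.69 and -2.90). The part of these shifts in the mitochondrial lists was not tested beyond leaving the heart out.

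**Figure D4:**
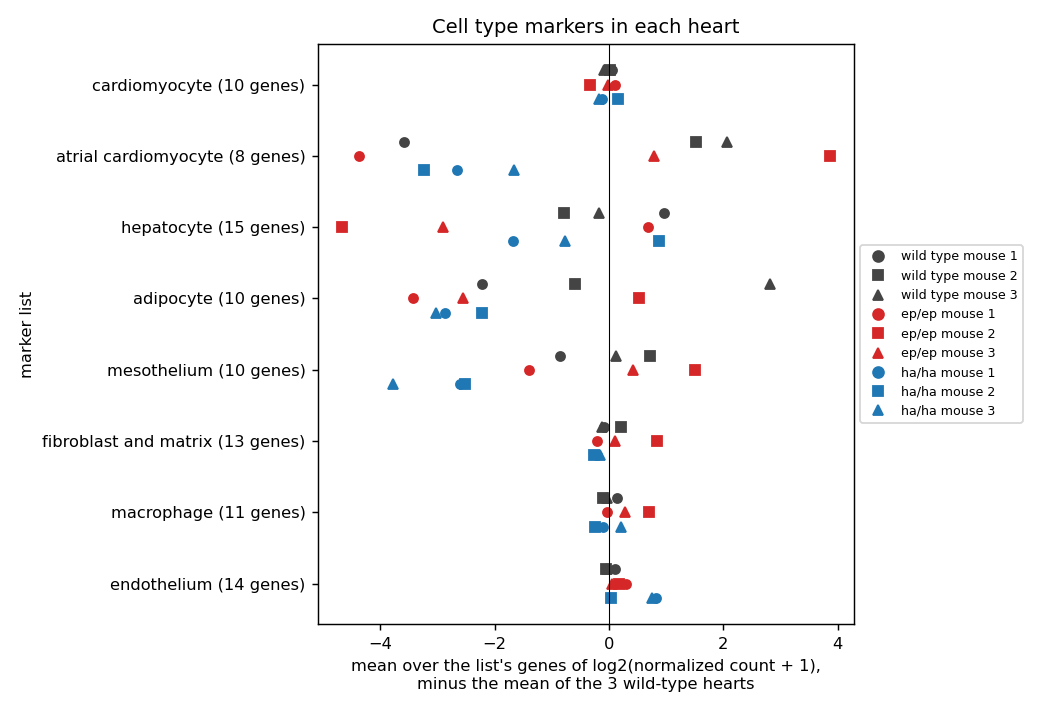
Mean over each marker list of log2(normalized count + 1) in each heart, set against the mean of the 3 wild-type hearts; colours are genotypes and symbols are mice. Atrial markers split the wild-type and the Mrps12ep/ep hearts and are low in all Mrps12ha/ha hearts, hepatocyte and adipocyte markers range over several log2 units, and the second Mrps12ep/ep heart (red square) is the lowest in cardiomyocyte and hepatocyte markers.

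The lower median of the genes of fatty acid uptake and oxidation also rested on that heart. Of 37 genes 34 had a lower mean, with a median of -0.24, and 4 had an unadjusted p under 0.05 (background in that direction 0.635%), while 5 were free of overlap (3.64%). Without the second Mrps12ep/ep heart the median was -0.02, 17 of 37 were higher and 0 had an unadjusted p under 0.05 by limma. The count of 4 became 8 without the first Mrps12ep/ep heart, 2 without the first wild-type heart, and 1 without the second or the third wild-type heart. The median was -0.37 among the hearts with atrial RNA and -0.01 between those without it. The mean per heart was 0.02, -0.08 and 0.06 in wild type and -0.04, -0.62 and -0.11 in Mrps12ep/ep hearts. With hepatocyte markers as a covariate 0 genes had an unadjusted p under 0.05. Adipocyte markers were lower in 10 of 10 genes (median -1.91, none with an unadjusted p under 0.05 by limma, and -3.32 with 3 such genes without the second Mrps12ep/ep heart). Their mean per heart was -2.22, -0.60 and 2.81 in wild type and -3.42, 0.52 and -2.56 in Mrps12ep/ep hearts, and their part in the fatty acid genes was not tested.

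Some of these genes were nonetheless low in every Mrps12ep/ep heart. Pdk4, the kinase that shuts off pyruvate dehydrogenase when fat is burned, was at 40249, 30597 and 41501 normalized counts in wild type and at 21439, 19544 and 29589 in Mrps12ep/ep hearts. All Mrps12ep/ep hearts lay below all wild-type hearts, with a log2 fold change of -0.68 that did not pass the threshold (limma, unadjusted p = 0.0755). Ucp3, an uncoupling protein of muscle mitochondria, was at 2727.2, 2602.5 and 1916.9 against 1557.2, 1471.8 and 1834.4 (log2 fold change -0.56, limma, unadjusted p = 0.0354). It was higher in the Mrps12ha/ha hearts, at 3510.3, 2923.5 and 5499.3, and the mutants differed by -1.25 (limma, unadjusted p = 0.000358).

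Plin5, which ties lipid droplets to mitochondria, was at 5215.8, 5230.2 and 5434.9 in wild type and at 4648.9, 2712.2 and 4152.9 in Mrps12ep/ep hearts (log2 fold change -0.50, limma, unadjusted p = 0.0327). Acot2, a mitochondrial acyl-CoA thioesterase, was at 4660.4, 4412.5 and 4252.6 against 4060.5, 2234.9 and 3357.4 (-0.51, limma, unadjusted p = 0.0524). Neither gene overlapped, and both were lowest in the second Mrps12ep/ep heart. The fatty acid transporter gene Slc27a1 (-0.41) and the cytosolic thioesterase gene Acot1 (-0.78) had unadjusted p of 0.0286 and 0.0239 by limma, with overlap between the groups. Cpt1b, the carnitine palmitoyltransferase that commits fatty acids to oxidation in muscle, was at 34245, 31093 and 30603 against 30796, 21175 and 28505 (-0.27, limma, unadjusted p = 0.147).

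Cyp4a14 and Cyp4a10 encode fatty acid hydroxylases and were lower too, at low level. They belong to the cytochrome P450 list, of which 42 genes were tested. Of these 32 had a lower and 10 a higher mean, where 52.2% of all genes were lower. The list median was -0.70, and -0.31 without the second Mrps12ep/ep heart. Only these 2 members had an unadjusted p under 0.05 by limma (background in that direction 0.635%). Cyp4a14 was at 224.8, 29.4 and 41.5 normalized counts in wild type and at 21.8, 1.2 and 4.5 in Mrps12ep/ep hearts, a log2 fold change of -3.35 (SE 1.05, limma, unadjusted p = 0.0106). Cyp4a10 was at 124.9, 36.3 and 19.5 against 15.8, 2.3 and 13.6 (-2.30, limma, unadjusted p = 0.0172). The groups did not overlap, though the first wild-type heart carried much of the wild-type mean. The 15 hepatocyte markers were lower in Mrps12ep/ep hearts too (15 of 15, median -2.63, and -1.12 without the second heart), with means of 0.96, -0.78 and -0.17 in wild type, and liver also expresses these Cyp4a genes; the part of such RNA was not tested.

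Genes of the integrated stress response, which cells use when mitochondrial or cytosolic protein synthesis is disturbed, were not shifted as a group. Of 29 genes 13 were higher and 16 lower, with a median of -0.02. Atf4, its central transcription factor, was at 4420.2, 4122.7 and 4201.0 in wild type and at 4506.3, 4034.9 and 4093.9 in Mrps12ep/ep hearts (log2 fold change -0.01, SE 0.12). Ddit3, the CHOP gene, differed by 0.14 and Asns, asparagine synthetase, by 0.21, both with overlap. Trib3 was at 124.0, 103.0 and 98.7 against 133.7, 132.2 and 138.0, without overlap (0.31, limma, unadjusted p = 0.221).

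Between the mutants, 8 of the 29 genes had an unadjusted p under 0.05 by limma, against 17.9% of all genes, and 14 were higher in Mrps12ep/ep hearts, with a median difference of -0.01. Ddit3 was at 1373.2, 963.4 and 1138.3 in Mrps12ha/ha hearts against 828.2, 675.6 and 685.6 in Mrps12ep/ep hearts, a difference of -0.66 for Mrps12ep/ep minus Mrps12ha/ha (limma, unadjusted p = 0.0014). For Trib3 it was -0.65 (limma, unadjusted p = 0.0233). Atf3, a stress-induced transcription factor, was lower in Mrps12ep/ep than in wild-type hearts (707.8, 740.6 and 919.4 against 583.5, 590.9 and 357.8, log2 fold change -0.65, limma, unadjusted p = 0.0194). It was lower still in Mrps12ha/ha hearts (213.5, 326.2 and 283.5), and the mutants differed by 0.88 (limma, unadjusted p = 0.00401). Aldh18a1, an enzyme of proline synthesis, was higher in Mrps12ep/ep hearts by 0.38 (limma, unadjusted p = 0.049).

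Mitochondrial chaperones and proteases (20 genes, median -0.10) held no gene with an unadjusted p under 0.05, and all 20 intervals lay within a 2-fold change. The proteases Afg3l2 and Lonp1 each differed by -0.09 and the chaperone Hspd1 by -0.10. Of the regulators of mitochondrial biogenesis (19 genes, median -0.09), Ppargc1a differed by -0.30 and Tfam, which packages and transcribes mitochondrial DNA, by -0.17, both with overlap. Cytosolic ribosomal protein genes had a median of -0.03 over 79 genes, with 78 intervals within a 2-fold change.

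Genes of glycolysis and the TCA cycle (39 genes) had a median of -0.11, and of 0.03 without the second Mrps12ep/ep heart. The hypertrophy list had 6 of 16 genes higher, with a median of -0.08. The natriuretic peptide gene Nppb differed by 0.52 and the slow myosin gene Myh7 by -0.48, both with overlap. Acta1, skeletal actin, was at 37619, 20543 and 6961 in wild type and at 7820, 10462 and 6920 in Mrps12ep/ep hearts (log2 fold change -1.08, limma, unadjusted p = 0.0524), a spread of several fold within wild type alone. Of 28 sarcomere and calcium-handling genes 23 had a lower mean, with a median of -0.08, and without the second Mrps12ep/ep heart 22 were higher, with a median of 0.04; none had an unadjusted p under 0.05 by limma. Cardiomyocyte markers had a lower mean in 10 of 10 genes (median -0.08), and were higher in 9 of 10 without that heart.

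Insulin and mTOR signalling genes (26 genes, median -0.05) included Irs2, the insulin receptor substrate, at 973.9, 933.6 and 1260.3 in wild type and 671.6, 969.6 and 611.2 in Mrps12ep/ep hearts. The groups overlapped through the second Mrps12ep/ep heart (log2 fold change -0.51, limma, unadjusted p = 0.0332, and -0.71 without that heart). Irs2 was far lower in Mrps12ha/ha hearts, at 259.5, 326.2 and 347.2, and the mutants differed by 1.25 (limma, unadjusted p = 0.000143). Of the clock genes (11 of 18 higher), Nr1d1, the REV-ERB alpha repressor, was at 4551.1, 4936.0 and 3897.9 against 6308.2, 5115.3 and 6241.7 (0.40, limma, unadjusted p = 0.0135). Gclc, which starts glutathione synthesis, was lower without overlap (-0.29, limma, unadjusted p = 0.0323), among 25 antioxidant genes with a median of -0.12.

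Single genes were also ranked by the limma p among those with a mean of 50 or more whose groups did not overlap, 528 higher and 487 lower in Mrps12ep/ep hearts, and the 10 in each direction with the smallest p were taken. Selection fixed their direction and their lack of overlap. Gga3, an adaptor of transport from the Golgi to endosomes, led the lower genes. It was at 1439.8, 1643.9 and 1360.9 normalized counts in wild type and at 755.8, 929.6 and 689.3 in Mrps12ep/ep hearts. Its log2 fold change was -0.91 (95% interval -1.28 to -0.54, limma, unadjusted p = 0.000318). The Mrps12ha/ha hearts, at 1321.7, 1268.4 and 1776.6, stood with wild type, and the mutants differed by -0.87 (limma, unadjusted p = 0.000433). Gga3 (chr11:115584255-115604051, minus strand) overlaps an end of Mrps7, a mitoribosomal gene at chr11:115603925-115608036 (reads were assigned by strand), which differed by 0.01. The adjusted p of Gga3 was 0.0246 with array weights and ranged up to 1 over the other alternatives.

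Mid1, an X-linked gene for a microtubule-associated ubiquitin ligase, was the most variable of the higher genes. It was at 316.9, 462.9 and 483.0 in wild type and at 2157.6, 611.2 and 2485.6 in Mrps12ep/ep hearts, so the first and the third hearts were several times higher and the second only just outside the wild-type range. The log2 fold change was 1.84 (95% interval 0.80 to 2.88, limma, unadjusted p = 0.00293). Without the second Mrps12ep/ep heart it was 2.48 with an adjusted p of 0.0488, which ranged up to 1 over the other alternatives. Mrps12ha/ha hearts were at 344.2, 516.4 and 383.1, within the range of wild type but for the highest.

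Rcor2, a corepressor of the CoREST family, had little spread within either group. It was at 260.9, 275.1 and 256.0 in wild type and 170.4, 151.9 and 150.8 in Mrps12ep/ep hearts (log2 fold change -0.74, limma, unadjusted p = 0.00343). Csrnp2, a nuclear protein gene, was at 111.9, 90.0 and 88.0 against 177.3, 175.1 and 203.4 (0.94, limma, unadjusted p = 0.00452). Both genes differed from Mrps12ha/ha hearts as well, by -0.75 and 0.75 (limma, unadjusted p = 0.00329 and 0.0147).

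Nmrk2, the muscle nicotinamide riboside kinase of NAD synthesis, was at 236.8, 212.0 and 112.6 in wild type and at 68.4, 90.5 and 99.9 in Mrps12ep/ep hearts (-1.06, limma, unadjusted p = 0.00546). The Mrps12ha/ha hearts lay in the same range, at 108.6, 96.6 and 87.1, with a difference between the mutants of -0.19. Rrad, a small GTPase that restrains L-type calcium channels, was at 2057.2, 1959.7 and 1326.3 against 2972.8, 2868.2 and 2417.5 (0.65, limma, unadjusted p = 0.00545). It was higher again in Mrps12ha/ha hearts, at 4200.6, 5327.4 and 4313.9, and the mutants differed by -0.74 (limma, unadjusted p = 0.00241). Mcm6, of the replicative helicase, was at 335.0, 336.6 and 276.1 against 427.0, 437.2 and 470.4 (0.50, limma, unadjusted p = 0.00377), and Mrps12ep/ep differed from Mrps12ha/ha hearts by 0.02.

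Of the 20 genes taken by this rule, 9 differed from Mrps12ha/ha hearts in the same direction at an unadjusted p under 0.05, 1 (Rrad) in the opposite direction, and 10 did not reach that p. The genes were chosen on the values of the same 3 Mrps12ep/ep hearts that enter this difference, so the choice itself favours that direction and the count is a description. Of all genes, 17.9% had an unadjusted p under 0.05 between the mutants and 4 had an adjusted p under 0.05 (0.0249%). The remaining higher genes were Trim59 (1.31), Chtf8 (0.94), Gbp3, Gbp2, Oasl2 and Irf7. The remaining lower ones were Gm21887 (-1.52), Fam177a (-0.48), Msh3 (-0.38), a mismatch repair gene, Cyp4a14, Accs (-0.47), Rabepk (-0.54) and D7Ertd443e (-1.03).

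**Figure D5:**
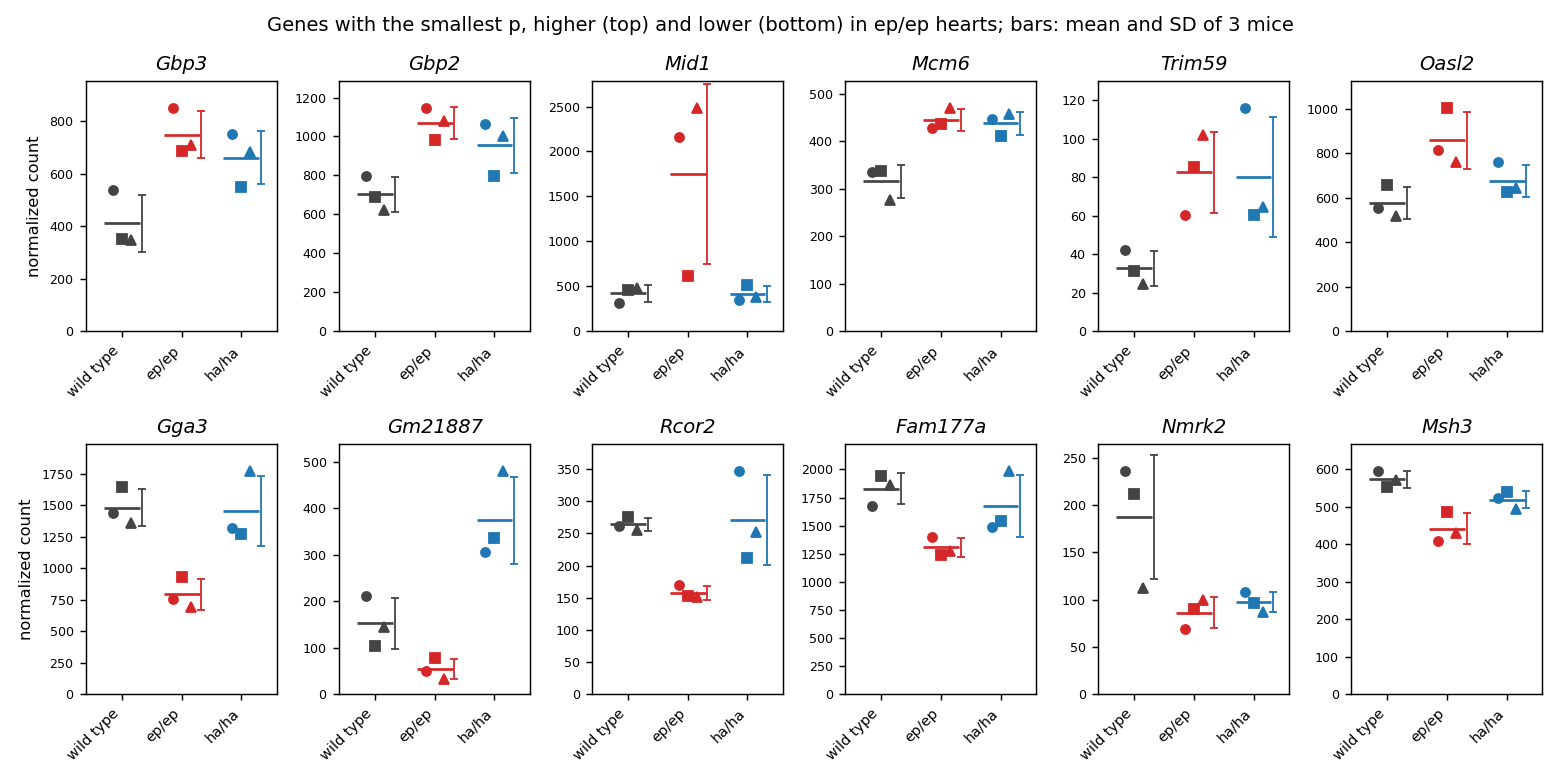
Normalized count per heart of the 6 higher genes (top) and 6 lower genes (bottom) with the smallest limma p, with vertical axes from 0; points are mice (circle, square and triangle for mice 1, 2 and 3), horizontal lines are means and bars show SD of 3 mice. Gga3, Gm21887 and Rcor2 are lower in Mrps12ep/ep hearts than in either other genotype, while Mcm6, Trim59 and Nmrk2 stand at a like level in both mutants.

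By size rather than p, the largest differences of that pool were in scarce or variable transcripts. Rps12l1, a processed pseudogene that can share reads with Rps12, was higher by 3.83 with a wild-type heart at 0. Among the others, Cenpe (1.85), Kif22 (1.49) and Knstrn (1.48) take part in the mitotic spindle. Cenpe was at 31.9, 15.6 and 17.6 in wild type and 37.6, 117.1 and 104.4 in Mrps12ep/ep hearts. Kif22 was at 37.0, 26 and 21.4 against 68.4, 80.6 and 89.0. The lower genes were Cyp4a14, Gm21887, the X-linked Xlr3b (-2.07), Fanca (-1.23) of the Fanconi DNA repair pathway, and AC124502.3 (-1.14).

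The neighbourhood of the mutation was read separately. Of 190 genes tested within 5 Mb of Mrps12, 80 were higher and 110 lower, with a median of -0.03. An unadjusted p under 0.05 was found for Rinl (0.55, limma, unadjusted p = 0.0394), at 89.6, 132.4 and 104.4 in wild type and 151.6, 168.2 and 154.4 in Mrps12ep/ep hearts. It was also found for Prodh2 (-2.63, limma, unadjusted p = 0.044), a liver and kidney enzyme gene at 30.1, 9.5 and 16.4 against 22.8, 0.0 and 0.0, counts too low for more. Nnt, the transhydrogenase gene in which some C57BL/6 substrains carry a deletion, was expressed in all hearts under both of its gene IDs and differed by -0.29 and -0.20 (limma, unadjusted p = 0.209 and 0.712).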

How the data were processed

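Total heart RNA of 9 mice was sequenced as 3 technical libraries per mouse (HiSeq, TruSeq). The submitters' processing notes name Trim Galore 0.4.1, cutadapt 1.18, FastQC 0.11.8, Salmon 1.1.0 and DESeq2. Reads were quantified against GENCODE transcripts of GRCm38. The authors deposited counts normalized by DESeq2 size factors for each tissue, pooled to 1 column per mouse, without mitochondrial transcripts. Normalized counts remove depth but not cell composition, and they are not counts per length, so levels were not compared between genes. Column steps gave the reads behind them.

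Genes with a mean of 10 or more were tested with limma 3.58.1 (R 4.3.3; lmFit and eBayes with trend) on log2(normalized count + 1), over all 9 hearts, two-sided, with Benjamini-Hochberg adjustment over 16057 genes. Fold changes are on that scale, which understates changes of scarce genes. SEs and 95% intervals come from the fit. The fit was also run on simulated counts with planted changes. These had the same dispersion for every gene and no differences in cell composition between hearts. That run was therefore no check of how the fit behaves in these hearts. Replicates are separate mice, and no sample was dropped.

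Named genes were Mrps12, Sars2 and Nnt; any with an adjusted p under 0.05; the 10 per direction with the smallest p, and the 5 per direction with the largest fold change, among genes with a mean of 50 or more and no overlap; a set of anchors; and the 2 per direction with the smallest p in each list. Other listed genes were named for their pathway role. The members, lists and rules were chosen with earlier results of these data known. Alternatives changed the pseudocount, filter, scaling, fit and hearts used. Promoters were RefSeq's. A gene of the interferon-stimulated list is counted in its totals and is not reported here singly.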

Additional observations from a re-analysis of the deposited data

How the results depend on the processing

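Across 25 other fits (20 planned, 5 chosen after seeing the data), the number of interferon-stimulated genes with a higher mean was 23 to 24 and their median 0.409 to 0.648, and of 775 values of 31 named genes 768 kept their sign. The number of genes with an adjusted p under 0.05, 0 as reported, was 1 with a pseudocount of 0.1 or of 8, 2 with no filter, quantile normalization, robust eBayes or limma-voom, 1 with only both compared genotypes in the fit, 3 with array weights, and 0 to 1 when each heart was left out. The 271 genes with an unadjusted p under 0.05 became 594 with no filter, 524 with only both genotypes, 2277 with array weights, 503 with limma-voom, 470, 480 and 536 with atrial, hepatocyte and endothelial markers as a covariate, 459 with both first mice left out, and 130 to 520 when each heart was left out. The interferon-stimulated genes past that threshold, 11 as reported, were 17 with array weights and 5 to 15 when each heart was left out. The fatty acid genes past it, 4 as reported, were 8 with array weights, 0, 1 and 2 with hepatocyte, macrophage and endothelial covariates, 7 with both first mice left out, and 0 to 8 when each heart was left out. The causes were not tested. Array weights gave the third Mrps12ep/ep heart a weight of 4.928 and the second 0.4704. The replicate numbers were checked as a pairing. Deviations of same-numbered hearts correlated at 0.578, 0.409 and -0.07. For the first and second Mrps12ep/ep hearts the same-numbered wild-type heart was the best match. The third Mrps12ep/ep heart correlated best with the second wild-type heart (0.121). The first mice of both genotypes were also those low in atrial markers. The labels name no pairs, and whether a number marks a shared handling was not tested. With the number as a replicate block, 0 genes had an adjusted and 315 an unadjusted p under 0.05, and 12 interferon-stimulated genes had an unadjusted p under 0.05. The planned edgeR and DESeq2 alternatives were not run; limma-voom was the only fit on recovered whole reads. Depth limits genes with a mean under 100. With a minimum mean of 50 no thymus marker was left to test.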

Other observations

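Genes of DNA replication and mitosis, a list of 42 drawn up after Cenpe, Kif22 and Knstrn had been seen and so given with no test, were mostly higher in Mrps12ep/ep hearts. Of the 42 tested 39 had a higher mean (47.7% of all genes did) and their median difference was 0.89 on the log2 scale. In 26 the Mrps12ep/ep hearts lay above all wild-type hearts without overlap (4.40% of all genes), and in 1 more, Rrm1, below them. The genes that prompted the list were picked for their size and lack of overlap in these same hearts. That choice favours this direction, so these counts and those below are a description and no support for a difference. The mean log2 level of the list, set against wild type, was 0.37, -0.15 and -0.23 in the wild-type hearts, 0.88, 0.82 and 0.76 in the Mrps12ep/ep hearts, and 1.23, 0.10 and -0.31 in the Mrps12ha/ha hearts. Mki67, the standard marker of cycling cells, was at 320.3, 221.5 and 157.2 normalized counts in wild type and at 587.4, 546.8 and 582.1 in Mrps12ep/ep hearts. Aurkb, a mitotic kinase, was at 21.5, 11.2 and 11.3 against 58.4, 44.7 and 43.6, and Top2a, which untangles DNA before division, at 155.9, 160.1 and 101.9 against 315.0, 342.7 and 292.4. Without the second Mrps12ep/ep heart the median was 0.88 with 40 genes higher. Among the hearts with atrial RNA it was 0.99 with 39 higher, and between those without it the median was 0.42 with 36 higher. Pcna (-0.03) and Mcm4 (-0.02), of the replication fork, did not share the direction. Which cells of the heart carried these transcripts was not tested.

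A pair of short or repeated gene models, named after their values were seen, had the smallest p of all. Gm6361, a processed pseudogene on chromosome 15, was at 68.9, 50.2 and 51.6 in wild type and at 0 in all Mrps12ep/ep and all Mrps12ha/ha hearts, at least 23-fold lower in Mrps12ep/ep hearts when set against a floor of 3 reads per heart (limma, adjusted p = 0.0624, ranging from 0.00248 to 1 over the alternatives). AL731706.2, at chr2:136885500-136885679, was at 25.8, 32 and 27.7 in wild type, at 0 in all Mrps12ep/ep hearts and at 12.9, 33.2 and 27 in Mrps12ha/ha hearts, at least 11.5-fold lower (limma, adjusted p = 0.0624, ranging from 0.0018 to 1). Gm6361 passed the minimum mean only through the wild-type hearts, where it was high, so its p is no support for a difference. AL731706.2 passed it only through the wild-type and Mrps12ha/ha hearts. Pseudogene counts depend on how reads shared with a parent gene are assigned, so both differences are uncertain.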
